A study of Drosophila melanogaster with 4 samples.

Results

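The genes described here act in building the centriole, in gathering the pericentriolar material around it and in making the basal body of the sperm. The list holds 9 genes, *SAK*, *asl*, *ana1*, *ana2*, *Sas-4*, *Sas-6*, *unc*, *Plp* and *cnn*. A gene was taken up where the array annotation gives a probe set to it and to no other gene. This held for 6 of the 9, among 11981 genes on the array with a probe set of their own. They have 8 probe sets of the 18769 that were tested, since *Plp* has 3. The annotation used here gives no probe set to *ana1*, *unc* or *cnn*, and these 3 genes were not analysed here. The neuroblast gene *ana* is another gene and was not counted. The rule uses no measured value, although the list was drawn up with earlier results of these arrays known.

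The centriole is a short cylinder of microtubules. In *Drosophila* a new one starts where the kinase SAK (Plk4) acts on Ana2, which brings in Sas-6 to form the cartwheel, and Sas-4 then adds the microtubule wall. Asl places SAK on the mother centriole, and Asl, Plp and Cnn organise the pericentriolar material from which microtubules grow. Centrioles of the testis have a second task: in spermatocytes they lengthen greatly and dock at the cell surface, and after meiosis each serves as the basal body on which the axoneme of a sperm tail grows. Unc is a protein of that basal body.

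Testes were compared between flies without the RNA-binding gene *nsr* (*CG3875*), called *nsr* mutant, and WT flies, all aged 0 to 2 days, with 2 arrays for each genotype. The mutant carries a null allele made by ends-in gene targeting, which deletes nearly the whole transcribed gene. The WT flies descend from the same targeting and kept the gene intact, so that both stocks share their background, and the seminal vesicles were dissected away from the testes. The arrays are GeneChip *Drosophila* Genome 2.0 arrays, each read in a single colour, and the values are linear intensities. The methods of the paper describe RNA taken from mutant and from WT testes and arrays run in duplicate. They do not say whether each array had its own extraction or its own group of flies. A p-value thus reflects the spread between the 2 arrays of a genotype alone, which may be technical.

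The array medians were 12.1 and 14.1 in *nsr* mutant testes and 13.5 and 15.7 in WT testes. Background was set by the negative controls: a probe set counts as above it on an array where it exceeded the highest of 70 negative controls there, which lay between 5.88 and 8.92. The deleted gene itself read 23.2 and 27.6 in the mutant and 549 and 554 in WT, the direction that the labels require. Its mutant values still exceeded the highest negative control on both arrays, so a value above background does not by itself mean an intact transcript. *Sas-4* and the brightest probe set of *Plp* read below these mutant values on all 4 arrays, and *SAK*, at 27.0 to 36.6, read near them. Of the germline markers with a probe set of their own, 5 of 5 genes of spermatids, 6 of 6 of spermatocytes and 2 of 2 of the early germline were above background on all 4 arrays. Each gene was counted by its brightest probe set. Among all 18769 tested probe sets, 9743 were above background on all 4 arrays. Of 4 genes of hub and cyst cells, *eya* was above it on all 4 arrays (125 and 77.7 in the mutant, 114 and 120 in WT), *zfh1* on 3, and *upd1* and *tj* on none. Markers of neighbouring tissues with a probe set were above it on all 4 arrays for 1 of 4 accessory gland genes, 2 of 2 muscle genes and 1 of 3 fat body genes. Also listed were *vas* and *nos* of the early germline, *Fas3* of hub and cyst cells, and the muscle genes *Mhc* and *wupA*. No probe set was assigned to any of these alone.

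None of the 6 genes passed the test between the genotypes. The test was limma on log2(intensity + 16), with Benjamini-Hochberg adjustment over the 18769 probe sets and a call at an adjusted p under 0.05. Because of the added 16, fold changes of dim genes are understated. The same test called 0.00533% of all probe sets, that is 1, which reports *nsr*, while 1338 had an unadjusted p under 0.05. With so few calls in all, the absence of a call among the 6 genes says little about them, and none had an unadjusted p under 0.05 either. Their adjusted p lay between 0.747 and 0.961 from limma. The 95% intervals of their log2 fold changes lay between -0.47 and 0.43, which on this scale is between 0.722 and 1.34 times the WT level.

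*SAK* encodes the kinase that starts centriole duplication. It had intensities of 27.0 and 30.4 in the mutant and of 36.6 and 29.8 in WT. The mutant values lay on either side of the lower WT value, and the genotypes overlapped. The means were 28.7 (SD 2.43) for the mutant and 33.2 (SD 4.76) for WT, over 2 arrays each, and the log2 fold change was -0.14, with a 95% interval from -0.44 to 0.16. It was -0.037 without WT 1 and -0.23 without WT 2. *SAK* was brighter on WT 1 than on WT 2, unlike the other 5 genes.

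*ana2* and *Sas-6* encode the partners with which the cartwheel begins. *ana2* had 62.7 and 68.0 in the mutant and 65.1 and 79.5 in WT. Of these values WT 2 stood apart as the highest, and the other 3 arrays lay close together. On average it read 65.3 (SD 3.69) in the mutant and 72.3 (SD 10.2) in WT, again over 2 arrays each, and the log2 fold change was -0.11, with an interval from -0.43 to 0.20. Without WT 2 it was 0.0036, so that its sign rested on that array.

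*Sas-6* had 67.3 and 83.7 in the mutant and 65.6 and 76.4 in WT, and in both genotypes the second array was clearly the brighter. The mutant averaged 75.5 (SD 11.6) and WT 71.0 (SD 7.60), n = 2 each. The log2 fold change of 0.070, with an interval from -0.28 to 0.42, turned to -0.060 without *nsr* mutant 2 and to -0.019 without WT 1. The pair of cartwheel genes thus lay on opposite sides of 0, each by less than the difference between the WT arrays.

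*Sas-4*, which encodes the protein that ties the cartwheel to the microtubule wall, was close to background. It had 11.6 and 13.3 in the mutant and 8.26 and 13.4 in WT, where WT 1 was below its highest negative control of 8.92. It was thus measured above background on both mutant arrays and on 1 of the 2 WT arrays. The mutant mean was 12.5 (SD 1.14) and the WT mean 10.8 (SD 3.62), n = 2 each, and the log2 fold change was 0.091, with an interval from -0.24 to 0.43. Without WT 1 it was -0.047. With a pseudocount of 1 in place of 16 it was 0.22, with a wider interval from -0.60 to 1.03, so that a 2-fold rise of *Sas-4* is not outside what these arrays allow.

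*asl* encodes the scaffold that links SAK to the mother centriole and later helps to gather pericentriolar material. It had 66.6 and 78.2 in the mutant and 73.6 and 88.5 in WT, and the higher mutant value lay between the WT values. The average was 72.4 (SD 8.24) in mutant testes and 81.0 (SD 10.5) in WT testes, n = 2 each. The log2 fold change was -0.13, with an interval from -0.47 to 0.21. Leaving out single arrays moved it between -0.24 without WT 1 and -0.022 without WT 2.

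*Plp*, the pericentrin-like protein that anchors pericentriolar material, was the single gene of the 6 whose genotypes did not overlap. Its brightest probe set had 14.6 and 15.4 in the mutant and 18.2 and 20.3 in WT, above background on all 4 arrays. The mutant arrays averaged 15.0 (SD 0.61) and the WT arrays 19.2 (SD 1.48), n = 2 each, a ratio of 0.779. Its log2 fold change was -0.19, with an interval from -0.43 to 0.06, and limma gave it an adjusted p of 0.747. With a pseudocount of 1 it was -0.34, with an interval from -0.92 to 0.24.

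The background for such a pattern is high. The mutant lay below WT without overlap in 24.9% of all 18769 probe sets, in 27.7% of the 9743 that were above background on all 4 arrays, and in 16.5% of all probe sets when array medians were centred. The mutant lay above WT without overlap in 10.2%. The 1 gene of 6 that was lower without overlap is therefore, at 16.7%, no more than the array as a whole gives. With medians centred *Plp* still lay lower without overlap, and *Sas-4* and *Sas-6* then lay higher without overlap, as did 22.1% of all probe sets. One of these values, *Sas-4* on WT 1, was below background.

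The other 2 probe sets of *Plp* were above background on no array, and no fold change is given for them. One had 2.43 and 2.51 in the mutant and 4.66 and 5.01 in WT, and the other 2.31 and 0.47 in the mutant and 1.02 and 3.76 in WT. The first had no overlap between genotypes and the second had, both within the range of the negative controls. Where the 3 probe sets lie within *Plp* is not stated in the sources used here.

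**Figure D1:**
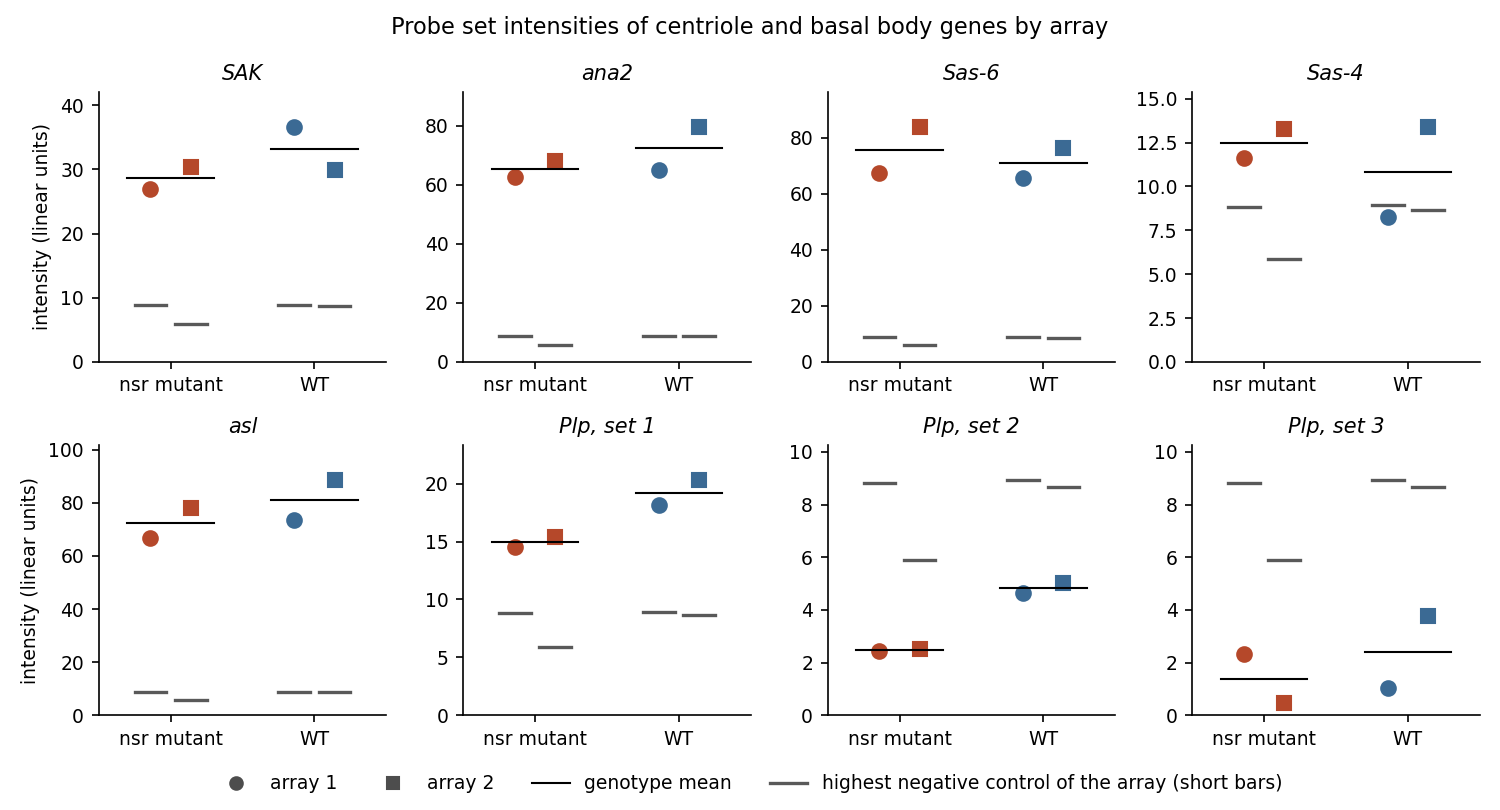
Intensity of each probe set (linear units) on the 2 *nsr* mutant arrays and the 2 WT arrays, with genotype means as long lines and the highest negative control of each array as short bars. *Plp* set 1 lies at 14.6 and 15.4 in the mutant below 18.2 and 20.3 in WT, while its sets 2 and 3 stay under the negative controls on all 4 arrays.

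**Figure D2:**
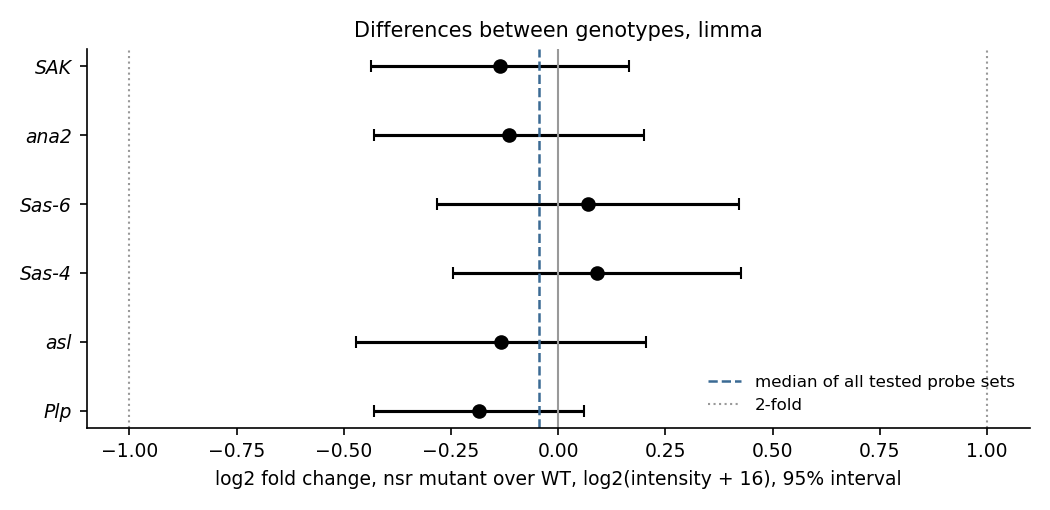
Log2 fold change of *nsr* mutant over WT on log2(intensity + 16), with 95% intervals from limma, for the probe set that stands for each of the 6 genes. Every interval holds 0 and lies between -0.47 and 0.43, and the dashed line marks the median of all tested probe sets at -0.044.

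As a group the 6 genes are described by their median and by the spread between arrays. The median of their log2 fold changes was -0.12, beside -0.044 for all tested probe sets and -0.079 for the 9743 that were above background on all 4 arrays. Of the 6, 4 had a fold change below 0, as had 62.6% of all probe sets. In 5 of the 6 genes, all but *Plp*, the difference between the genotype means was smaller than the difference between the 2 WT arrays. It was smaller than the difference between the 2 mutant arrays in only 2 of the 6. All 6 genes were brighter on the second mutant array than on the first, and 5 of 6 were brighter on WT 2 than on WT 1. The array medians had the same order, 14.1 against 12.1 in the mutant and 15.7 against 13.5 in WT. Relative to the WT mean, the median of the 6 genes was -0.18 and -0.05 (log2) for the mutant, beside -0.10 and 0.10 for WT, so that *nsr* mutant 2 lay within the range of WT.

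The order of the 6 genes by fold change, *Plp*, *SAK*, *asl*, *ana2*, *Sas-6* and *Sas-4* from lowest to highest, holds no step beyond the error. The span of the 6 fold changes, -0.19 to 0.091, is smaller than the width of any of their intervals. The signs were kept when array medians were centred and under quantile and loess normalization, where *SAK*, *asl* and *ana2* lay between -0.06 and -0.02, *Plp* at -0.11, and *Sas-4* and *Sas-6* between 0.14 and 0.17.

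Genes that work beside these were read as 3 further lists. For comparison with each list, 62.6% of all probe sets were below 0, and 68.0% of those above background on all 4 arrays. Of 11 other genes of centriole assembly and length with a probe set, none was called in either direction, 9 were below 0, and the median log2 fold change was -0.11. Both genes of the 3 lists with an unadjusted p under 0.05 from limma belong here. Such a p was also found for 1338 of all 18769 probe sets, and for 911 of the 9743 above background on all 4 arrays. The genes named from each list are those with its smallest p. *tws*, a regulatory subunit of the phosphatase PP2A, had 28.0 and 28.4 in the mutant and 42.9 and 44.9 in WT. Its genotypes were well apart, with a log2 fold change of -0.44 and an interval from -0.67 to -0.20, but it was not called (unadjusted p = 0.00522, adjusted p = 0.690 from limma). *Cp110*, whose protein caps the growing end of the centriole, had 133 and 122 in the mutant and 169 and 201 in WT. Its log2 fold change was -0.48, with an interval from -0.79 to -0.17 (unadjusted p = 0.0114, adjusted p = 0.690 from limma). Both kept these directions in each of the 13 other settings, and neither was called in any. *Alms1a*, a centrosomal protein whose gene lies beside its close copy *Alms1b* so that the source of its signal is uncertain, had 19.6 and 25.3 in the mutant and 26.0 and 25.3 in WT, with overlap.

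Of 12 other genes of pericentriolar material and the γ-tubulin complex none was called, 8 were below 0, and the median was -0.15. *tacc*, whose protein steadies centrosomal microtubules, had 123 and 175 in the mutant and 182 and 224 in WT, a log2 fold change of -0.42 (adjusted p = 0.729 from limma). It was -0.19 without *nsr* mutant 1, -0.65 without *nsr* mutant 2 and -0.28 without WT 2. Its 2 mutant arrays differed from each other by 0.46 on the log2 scale, more than the genotypes did. *Wdr62*, of centrosomes and spindles, had 42.4 and 52.0 in the mutant and 54.8 and 68.7 in WT, a log2 fold change of -0.30 (adjusted p = 0.730 from limma) that lay between -0.43 without WT 1 and -0.17 without WT 2. *msps*, the partner of *tacc*, overlapped between genotypes, with 93.6 and 110 in the mutant and 101 and 144 in WT. Its log2 fold change was -0.22, or 0.0027 without WT 2.

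Of 11 genes of the transition zone and basal body anchoring none was called, 8 were below 0, and the median was -0.11. *yuri*, which is needed in the male germline where the sperm head joins its basal body, had 290 and 395 in the mutant and 407 and 521 in WT. The log2 fold change was -0.43, with an interval from -0.94 to 0.09 (adjusted p = 0.728 from limma). It was -0.21 without *nsr* mutant 1, -0.64 without *nsr* mutant 2 and -0.25 without WT 2, and -0.16 as the mean of both *yuri* probe sets. *Cep290*, a transition zone protein, had 18.1 and 19.6 in the mutant and 22.0 and 24.7 in WT, also without overlap (log2 fold change -0.18). *Cby*, a basal body protein, ran the other way, with 199.6 and 233 in the mutant and 164 and 203 in WT, and its genotypes overlapped. The log2 fold change was 0.22 (0.083 without WT 1 and 0.37 without WT 2). With array medians centred it was 0.30, and the mutant lay higher without overlap, as in 22.1% of all probe sets. *Cby* was not called there either (adjusted p = 0.428 from limma). None of the lists was tested as a set, and their medians moved with single arrays. Without WT 2 they were 0.055 for assembly and length, 0.055 for pericentriolar material and -0.019 for the transition zone. Without WT 1 they were -0.22, -0.32 and -0.22 in that order of lists, and with array medians centred -0.035, -0.079 and -0.039.

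**Figure D3:**
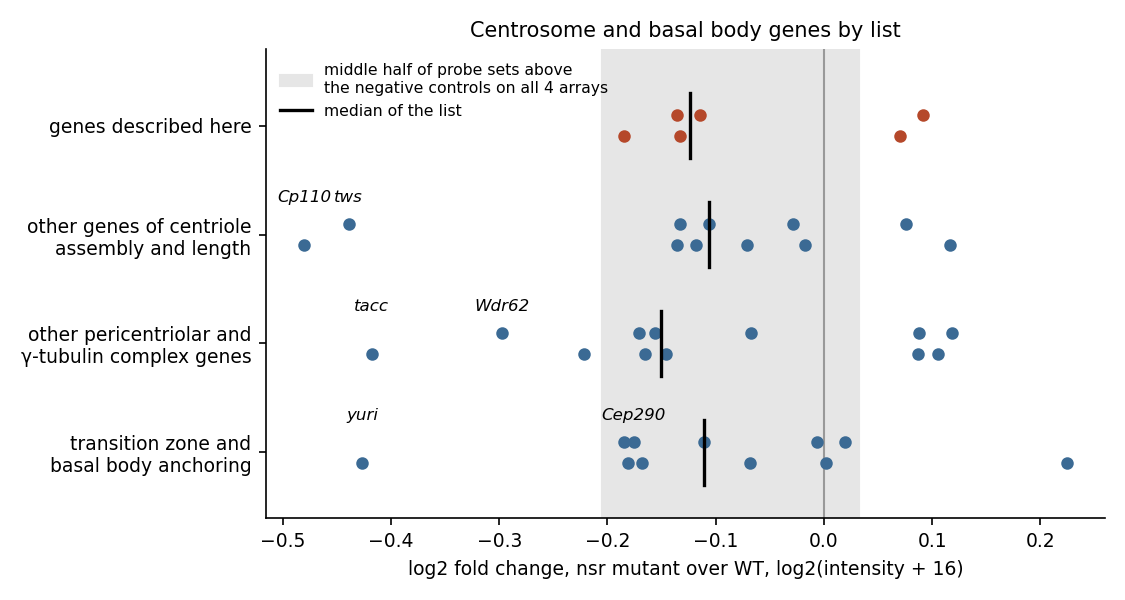
Log2 fold change of *nsr* mutant over WT on log2(intensity + 16), 1 point per gene, for the 6 genes described here and the 3 lists of their partners, with list medians as black bars. The grey band is the middle part of the probe sets above background on all 4 arrays, between their quartiles at -0.21 and 0.03, and *tws*, *Cp110*, *tacc*, *yuri*, *Wdr62* and *msps* lie below it.

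Other measures were compared between the genotypes as well. In bulk testes fewer cells of a type and less RNA per cell cannot be told apart. Of 5 spermatid marker genes, 3 were lower in the mutant without overlap. So were 24.9% of all probe sets and 27.7% of those above background on all 4 arrays. Of the 3 markers, *schuy* had 659 and 745 in the mutant and 878 and 989 in WT, a log2 fold change of -0.40. *hale* had 380 and 377 in the mutant and 473 and 479 in WT (-0.32), and *Mst87F* had -0.12. The unadjusted p from limma was 0.0206 for *schuy* and 0.0172 for *hale*, and neither was called (adjusted p = 0.690). An unadjusted p under 0.05 was found for 1338 of all 18769 probe sets. The marker *dj* overlapped, as did *ProtB*, which had a log2 fold change of 0.079. The summed intensity of the 5 genes was 5879 and 6507 in the mutant and 6550 and 7056 in WT. The 6 spermatocyte markers overlapped as a sum, with 1893 and 2373 in the mutant and 2061 and 2502 in WT. The spermatid sums thus lay apart by a narrow gap, 6507 against 6550, and the spermatocyte sums overlapped. None of these sums was scaled for the brightness of the arrays. The array medians were 12.1 and 14.1 in the mutant and 13.5 and 15.7 in WT. By gene, the median log2 fold change was -0.32 for spermatid markers (-0.40 to 0.079) and 0.029 for spermatocyte markers (-0.38 to 0.21). With array medians centred these medians were -0.25 and 0.10. The 3 lower spermatid markers then still lay below WT without overlap, as did 16.5% of all probe sets. A difference between the 2 cell types was not tested. The 2 muscle markers summed to 123 and 113 in the mutant and 76.4 and 81.8 in WT. Among them the flight muscle actin *Act88F* had 77.6 and 56.1 in the mutant and 36.2 and 26.8 in WT. The other, *up*, overlapped, with 45.5 and 56.7 in the mutant and 40.3 and 55.0 in WT. Markers of the other neighbouring tissues overlapped as sums. The 4 accessory gland markers summed to 70.2 and 97.9 in the mutant and 75.8 and 89.9 in WT, and the 3 fat body markers to 62.1 and 58.2 in the mutant and 37.6 and 66.7 in WT. RNA controls differed for actin only. In 2 of 4 control pairs probed at each end, the 5′ signal relative to the 3′ signal was lower in the mutant without overlap. Both report actin, with 0.745 and 0.687 in the mutant and 0.823 and 0.783 in WT for the first, and 0.229 and 0.227 in the mutant and 0.297 and 0.264 in WT for the other. *GAPDH*, with 0.598 and 0.592 in the mutant and 0.637 and 0.545 in WT, overlapped. So did *eIF-4a*, with 0.321 and 0.355 in the mutant and 0.348 and 0.367 in WT. The part of these in the values of the centriole genes was not tested.

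**Figure D4:**
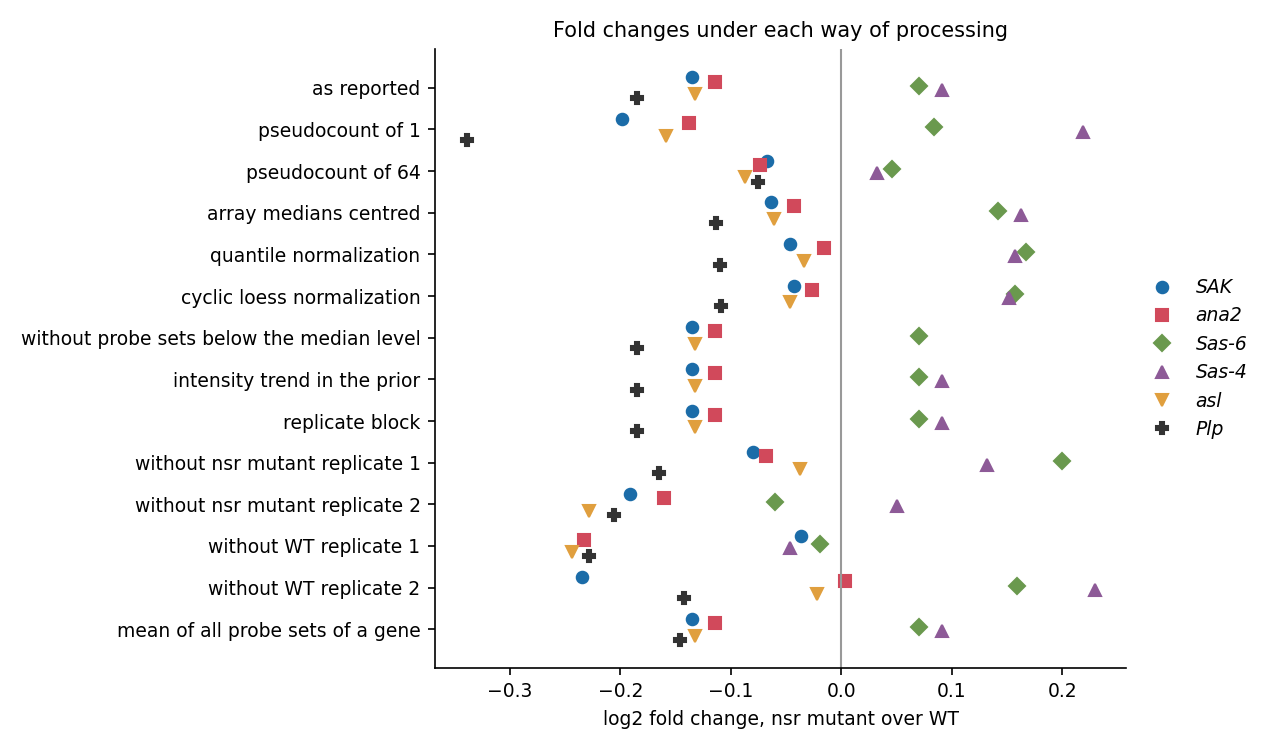
Log2 fold change of *nsr* mutant over WT for the 6 genes as reported and in 13 other settings. *Plp*, *SAK* and *asl* stay below 0 in all of them, while *ana2*, *Sas-6* and *Sas-4* cross 0 where a single array is left out, to 0.0036, -0.060 and -0.047 at the farthest.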

How the data were processed

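Total RNA of testes was extracted, amplified, labelled with biotin and hybridised by the authors to 1-colour GeneChip arrays. The authors deposited a linear intensity for each of 18952 probe sets on every array. How probes were summarised, corrected for background or scaled is not stated in the sources used here, and no further normalization was applied. The 183 Affymetrix control sets were not tested, and 70 of them, which are negative controls by their names, set the background. Probe sets were named by the array annotation, updated through a table of *D. melanogaster* genes. The brightest probe set stands for a gene.

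Genotypes were compared over all 18769 probe sets with lmFit and eBayes of limma 3.58.1 (R 4.3.3) on log2(intensity + 16), two-sided, without covariates. Tables and figures were made with Python 3.11.15, pandas 2.3.3 and matplotlib 3.10.9. The limma step was tested on simulated data. SAM, named in the methods of the paper, was not run. With SAM and its own thresholds the paper reported more genes as changed on these arrays than limma called in the reported setting. With 2 arrays per genotype their number limits the precision.

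The members and lists were chosen with earlier results of these data known. All 9 genes were to be named, and of each further list the 3 genes with the smallest p. The hub, cyst cell, spermatid and muscle markers were named after their values were seen. The alternatives were other pseudocounts (1 and 64), centred medians, quantile and loess normalization, a filter on level, an intensity trend, the replicate number as a block, all probe sets of a gene, and each array left out. Running them also for the further lists and *nsr* was decided after seeing the data.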

Additional observations from a re-analysis of the deposited data

How the results depend on the processing

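None of the 6 centriole and basal body genes was called in any of the 13 other settings, where the lowest adjusted p was 0.476 and the lowest unadjusted p 0.0774 (limma). Of 77 fold changes in these settings 73 kept their sign. The exceptions arose with 1 array left out: *Sas-6* at -0.060 without *nsr* mutant 2 and -0.019 without WT 1 (all 4 omissions, -0.060 to 0.20), *Sas-4* at -0.047 without WT 1 (-0.047 to 0.23), and *ana2* at 0.0036 without WT 2 (-0.23 to 0.0036). *Sas-4* had no value under the filter on level. The median of the 6 lay between -0.18 and -0.0091 without single arrays, and between -0.15 and -0.025 otherwise.

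Over all probe sets the number of calls was 1 (0 higher, 1 lower). It was 0 with a pseudocount of 1, 2 with loess, 3 with quantile normalization (1 higher, 2 lower), 111 with medians centred (37 higher, 74 lower), 122 without probe sets below the median level (23 higher, 99 lower), and 0 without any 1 of the 4 arrays; the cause was not tested. The lone array of a genotype was there assumed to vary like the other genotype. The *nsr* log2 fold change was -4.39 when the pseudocount was 1 (limma, adjusted p = 0.346) and between -3.85 and -3.70 without single arrays, and lost its call in these fits. Of the 9 named genes of the further lists, 1 of 117 fold changes turned, *msps* at 0.0027 without WT 2 (-0.45 to 0.0027 over the omissions).

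The replicate numbers were not taken as pairs, since no source ties them. The deviations of equally numbered arrays correlated at 0.150 over all probe sets. With the replicate block 2 probe sets were called, and none of the 6 genes.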

Other observations

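*yuri* has 2 probe sets of its own that gave different values. Chosen after its values were seen, the one that does not stand for the gene had 82.9 and 112 in *nsr* mutant testes and 78.6 and 101 in WT testes, a log2 fold change of 0.10, while the other had -0.43. Neither was called, and the difference between them was not tested.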
